A study of Mus musculus with 2 samples.

Results

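The T cell receptor genes examined here were the 4 genes of the CD3 complex (Cd3d, Cd3e, Cd3g and Cd247), the co-receptor genes Cd4 and Cd8a, the kinase gene Lck and the T lineage transcription factor genes Tcf7, Gata3 and Bcl11b. All array sequences annotated with one of these names were taken, which gave 21 sequences for the 10 genes, of 44170 sequences for 24171 named genes in all. The genes were measured in LT-HSC, the long-term haematopoietic stem cells of the marrow, which can rebuild the blood over a long period, sorted by flow cytometry from femurs of C57/BL6 mice. One NimbleGen array was made from WASH knockout LT-HSC and one from wild type control LT-HSC, so each group had 1 array. WASH is a protein that starts actin branching on endosomes. The allele, the way of deletion, the age and the number of mice behind each RNA sample are not given in the sources used here. With 1 array a group, no difference below has a replicate check, a standard error or a p-value.

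The T cell antigen receptor has no signalling part of its own. Its chains sit in the membrane with the CD3 delta, epsilon and gamma chains and the zeta chain made from Cd247, whose tails carry tyrosines that the kinase Lck phosphorylates, and CD4 or CD8 brings Lck to the receptor. TCF-1 (from Tcf7), GATA3 and BCL11B act in the thymus, where progenitors become committed to the T lineage, and GATA3 has also been studied in mouse LT-HSC. These genes were used here as T cell markers, and an LT-HSC sort was presumed to contain little of most of them.

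The sequences had intensities on a linear scale, as the authors made them with RMA, a method that subtracts background, puts arrays on a common scale and merges a sequence's probes into 1 value. Array medians were 137.5 for the knockout and 136.9 for the control. A set of 5000 probes of random sequence gave a level of 75.7 on the knockout array and 71.3 on the control array, and a value at or below it was read as not above background. Differences are log2 intensity, knockout minus control, so that 1 is 2-fold. Where a sequence was above the random-sequence level on 1 array only, the fold was taken against that level and is given as "at least". Counts at 2-fold and ranges over a gene's sequences use the values as measured, below background too, so a counted sequence can have a bound under 2-fold. Probes differ in how well they bind, so brightness served only to pick the sequence that stands for a gene, not to compare levels between sequences. In a bulk sample, fewer cells of a type and less RNA per cell cannot be told apart.

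Washc1, the gene of the WASH protein, was at 107 in the knockout and 119 in the control, and since the position of its probes relative to the deletion is not given, the labels remain unchecked by it. Of 12 LT-HSC marker genes, 3 (Procr, Tek and Fgd5) stayed at or under the random-sequence level in the knockout and in the control. Erythroid and neutrophil markers differed between the knockout and the control array. With no replicate arrays, whether genotype gave these differences was not tested. All 10 erythroid markers were higher in the knockout, 8 of them (80%) by 2-fold or more as measured, beside 5.94% of all genes. Their summed intensities were 56089 in the knockout and 9869 in the control, of which Hbb-b1 alone gave 43218 and 5699. Of 10 neutrophil markers 9 were lower in the knockout and 4 (40%) were lower by 2-fold or more, beside 6.42% of all genes. Their sums were 53128 in the knockout and 139230 in the control, with S100a8 alone at 16696 and 47334. Such sums are carried by the brightest genes.

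The T cell receptor genes showed no common direction between knockout and control LT-HSC. Of the 21 sequences, 13 were higher and 8 lower in the knockout, with measured differences between -0.96 and 1.42 and a median of 0.11, beside a median of 0.01 over all sequences. As measured, 1 sequence, of Cd8a, was past 2-fold higher and 0 past 2-fold lower, a share of 4.76%. Its control value was below background, which leaves a bound of at least 1.55-fold. By the same count 12.7% of all sequences on the array differed that much, 5.98% higher and 6.77% lower. The median size of a difference, whatever its direction, was 0.42 for these sequences and 0.42 for all sequences. The lower share of 2-fold differences thus rests on a single sequence and is not read as a property of the T cell genes. With each gene represented by its brightest sequence, 6 genes were higher and 4 lower and 0 of 10 reached 2-fold, beside 12.4% of all genes (5.94% higher and 6.42% lower).

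Sequences of the T cell genes were above background about as often as those of the whole array. Of the 21 sequences, 14 (66.7%) were above the random-sequence level on both arrays, 2 on the knockout array only, 1 on the control array only and 4 on neither. Over the whole array 64.3% of sequences were above it on both. Olfactory receptor genes, which stem cells are presumed not to express, passed it with 358 of 655 sequences (54.7%), so a value just above this level is weak evidence of expression. Some olfactory sequences also reached the values of the brightest T cell sequences on both arrays: 2.75% for Tcf7, 1.53% for Lck and 1.22% for Cd247. The 14 sequences above it on both arrays differed by -0.92 to 0.92, with a median of 0.12, and 9 of them were higher in the knockout.

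**Figure D1:**
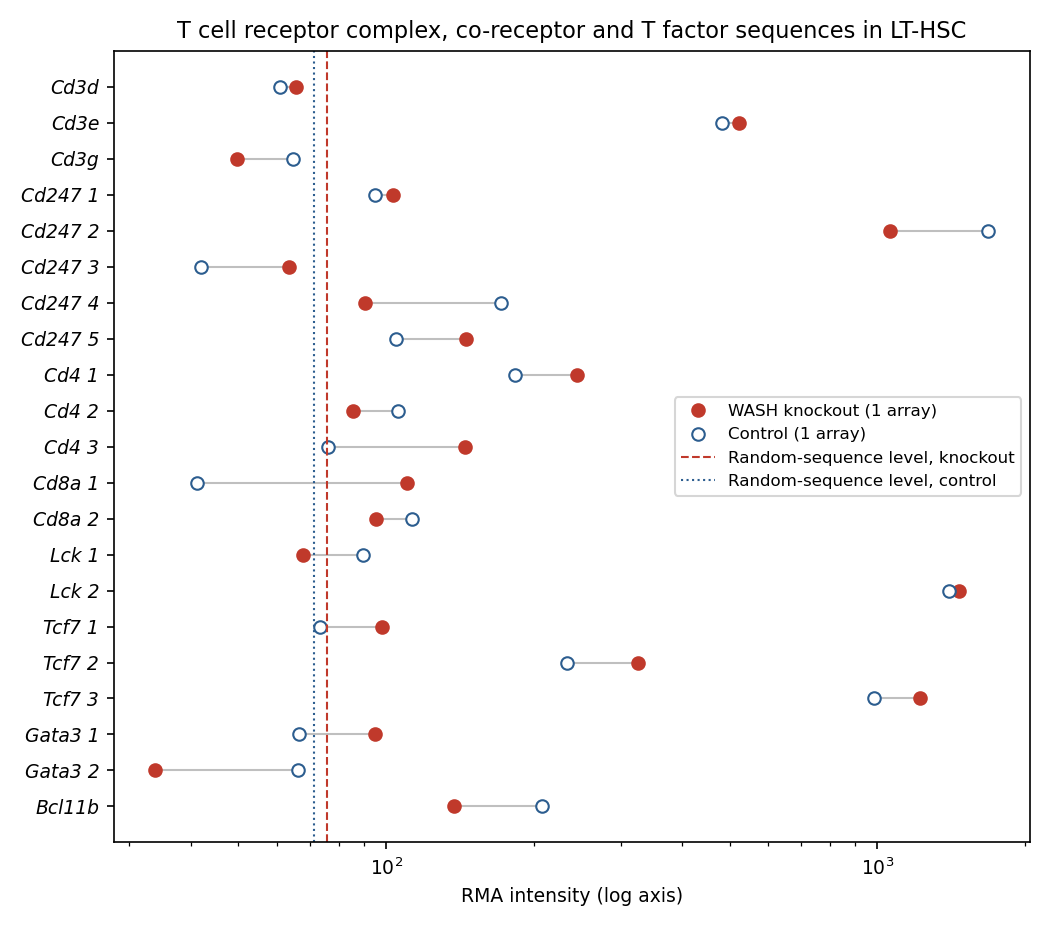
RMA intensity (log axis) of the 21 sequences of the 10 T cell genes on the WASH knockout array (filled) and the control array (open). Vertical lines mark the level of the random-sequence probes, 75.7 on the knockout array and 71.3 on the control array. Numbers after a gene name count its sequences by genomic position. Cd3d and Cd3g lie left of both lines, while Cd3e, Cd247 sequence 2, Lck sequence 2 and Tcf7 sequence 3 lie far to the right on both arrays.

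Among the CD3 chains with 1 sequence each, Cd3e was above background and Cd3d and Cd3g were not. Cd3e, whose chain pairs with both the delta and the gamma chain, was at 522 in the knockout and 483 in the control (chromosome 9, 44807549 to 44817673, MM9), a difference of 0.11. That was 6.90 times the random-sequence level in the knockout and 6.77 times in the control. Both arrays thus gave close values. Cd3d was at 65.5 in the knockout and 60.8 in the control (chromosome 9, 44789963 to 44794504), below the random-sequence level on both. Cd3g was at 49.8 in the knockout and 64.7 in the control (chromosome 9, 44777828 to 44788445), also below it on both. No fold is given for these 2 genes, because neither array measured them above background. These chains are needed together for a receptor at the cell surface. Of 655 olfactory receptor sequences, 62 (9.47%) were at or above the Cd3e values on both arrays. A signal of this size thus does not by itself show expression.

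The genes Cd3d, Cd3g and Cd3e are neighbours on chromosome 9, and Cd3d and Cd3g are read in opposite directions from starts that lie 1355 bases apart. Their upstream sequence is shown because these neighbours gave different readings on the arrays. The windows are the 250 bases before the RefSeq start, 5′ to 3′ on the strand of the gene, from build GRCm38.p6. Capitals mark matches, on either strand, to 4 short motifs: CTTTGA for the family of Tcf7, AGATAA for the GATA family, TGTGGT for the Runx family and GGAAGT for the Ets family.
Cd3d (chr9:44981536-44981785, plus strand): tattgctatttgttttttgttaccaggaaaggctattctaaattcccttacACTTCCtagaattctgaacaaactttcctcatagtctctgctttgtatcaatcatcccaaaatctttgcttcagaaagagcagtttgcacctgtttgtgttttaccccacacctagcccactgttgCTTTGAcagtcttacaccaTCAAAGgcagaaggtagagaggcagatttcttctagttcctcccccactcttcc
Cd3g (chr9:44980432-44980681, minus strand): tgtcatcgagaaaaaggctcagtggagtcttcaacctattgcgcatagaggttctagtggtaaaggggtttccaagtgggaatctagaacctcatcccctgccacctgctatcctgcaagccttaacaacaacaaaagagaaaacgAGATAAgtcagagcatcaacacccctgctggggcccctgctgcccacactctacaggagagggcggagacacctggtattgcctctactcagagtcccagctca
Cd3e (chr9:45009612-45009861, minus strand): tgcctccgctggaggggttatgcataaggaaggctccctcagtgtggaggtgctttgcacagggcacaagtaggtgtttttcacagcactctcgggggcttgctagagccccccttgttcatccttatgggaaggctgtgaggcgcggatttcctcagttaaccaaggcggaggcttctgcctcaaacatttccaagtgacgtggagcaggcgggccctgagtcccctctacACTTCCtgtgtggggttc

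The Cd3d window held CTTTGA on the gene's strand, from 73 bases before the start, and on the opposite strand from 54 bases before it, and an Ets match on the opposite strand from 199 bases before it. The Cd3g window held AGATAA from 104 bases before the start. The Cd3e window held only an Ets match, on the opposite strand from 18 bases before the start. None of these matches overlapped another. Of 32851 upstream windows in the RefSeq table, 13.8% held CTTTGA, 9.99% AGATAA, 14.05% TGTGGT and 19.7% GGAAGT. Of the 11 windows of the 9 T cell genes found in that table, 2 held CTTTGA (Bcl11b and Cd3d), 1 held AGATAA (Cd3g), 1 held TGTGGT (Lck) and 7 held GGAAGT. A match is a run of letters, not a binding site, and these windows do not bear on which of the genes gave a signal.

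Cd247, the gene of the zeta chain, had 5 sequences on chromosome 1, numbered here by genomic position. Sequence 2 (167718853 to 167799332), described in the files as a T cell receptor kappa mRNA, was at 1059 in the knockout and 1679 in the control, a difference of -0.67. Sequence 4 (167718853 to 167801284) was at 90.7 in the knockout and 172 in the control, a difference of -0.92. These were the 2 sequences of the gene that were lower in the knockout. Sequence 1 (167718853 to 167792200) was at 103 in the knockout and 94.7 in the control, a difference of 0.13. Sequence 3, annotated to the same first and last base as sequence 4, was at 63.5 in the knockout and 42.0 in the control, below the random-sequence level on both. Sequence 5 (167794785 to 167807407), a testis cDNA, was at 145 in the knockout and 105 in the control, a difference of 0.47. Of the 4 sequences above background on both arrays, 2 were thus higher in the knockout and 2 lower.

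**Figure D2:**
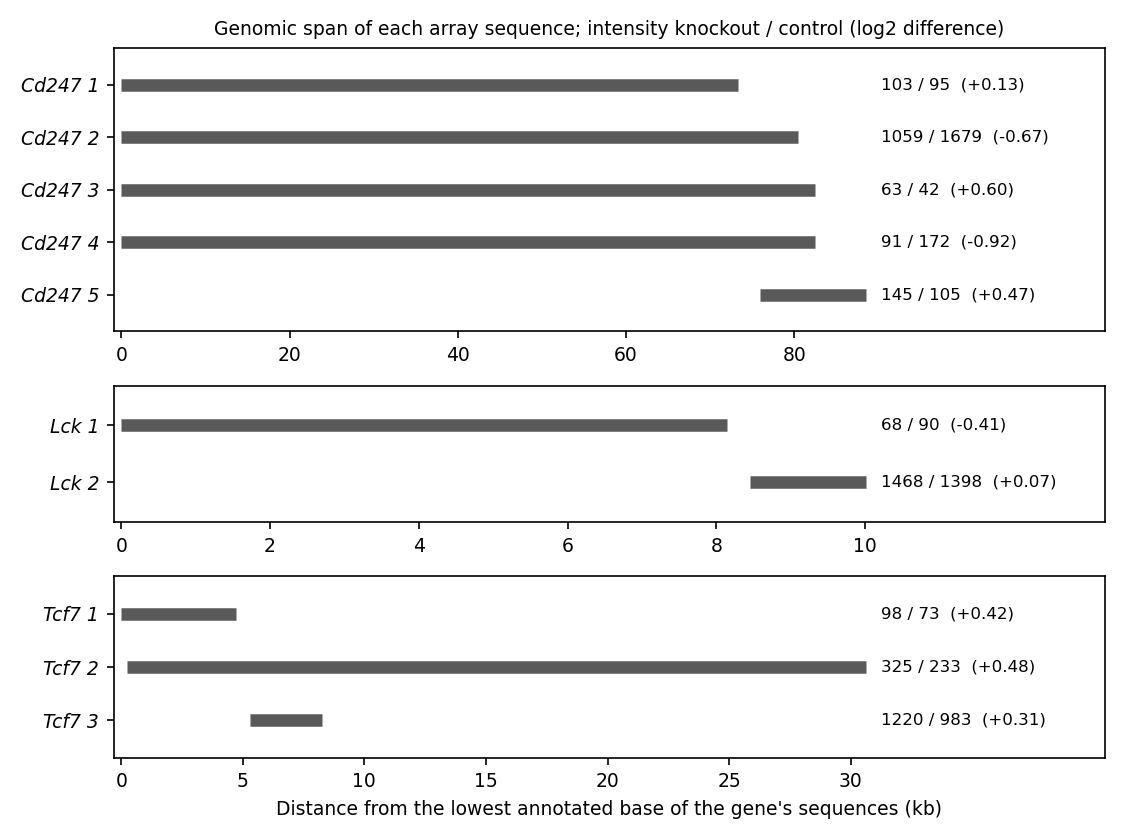
Span of each array sequence of Cd247, Lck and Tcf7 on MM9, drawn as distance in kb from the lowest annotated base, with its intensity in the knockout and in the control and the log2 difference beside it. Cd247 sequences 3 and 4 share 1 span, and sequence 3 was below the random-sequence level on both arrays. Lck sequence 2 lies outside the span of Lck sequence 1, and the 3 Tcf7 sequences were all higher in the knockout.

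The co-receptor genes each had sequences that differed in both directions. None of their values was above 3.23 times the random-sequence level of its array. Cd4, whose protein binds MHC class II, had 3 sequences on chromosome 6. Sequence 1 (124814715 to 124838206) was at 244 in the knockout and 183 in the control, a difference of 0.42, and sequence 3 (124828758 to 124838227) was at 145 in the knockout and 76.3 in the control, a difference of 0.92. On the control array the last value was only 1.07 times the random-sequence level. Sequence 2 (124817350 to 124838227) was at 85.7 in the knockout and 106 in the control, a difference of -0.30. Cd4 was thus higher with 2 sequences and lower with 1, and all 3 spans overlap.

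Cd8a, whose protein binds MHC class I, held the single sequence past 2-fold as measured. Its sequence 1 (chromosome 6, 71323420 to 71329165) was at 110 in the knockout and 41.2 in the control, a difference of 1.42. The control value lay below the random-sequence level, so the knockout was at least 1.55-fold higher. Its sequence 2 (71323556 to 71327603), which lies within the span of the first, was at 95.3 in the knockout and 113 in the control, a difference of -0.24. The sequences of Cd8a differed in opposite directions, the first of them only against background, and all 4 values were under the median of their array. With an offset of 50 added before the log, the difference of sequence 1 was under 2-fold. The authors' series table and both filters on dim sequences leave sequence 1 out, so they do not check its difference.

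**Figure D3:**
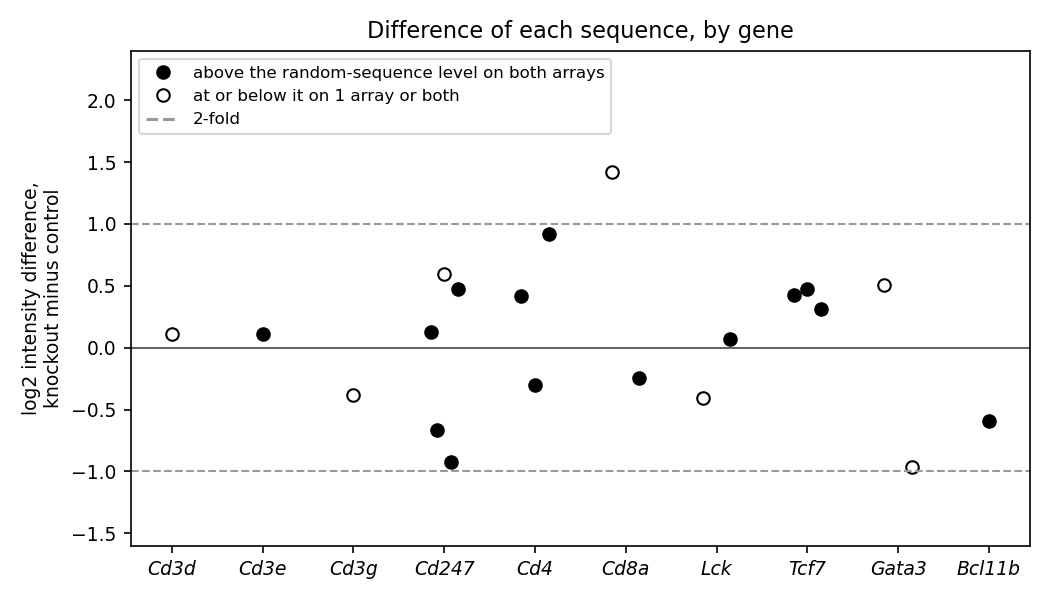
Log2 intensity difference, knockout minus control, of each sequence of the 10 T cell genes, in order of genomic position within a gene. Filled points were above the random-sequence level on both arrays and open points were not. Dashed lines mark 2-fold. One open point, of Cd8a at 1.42, lies beyond them, and 5 of the 6 genes with several sequences have points on both sides of 0.

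Lck, the kinase that phosphorylates the CD3 and zeta tails, gave one of the closest pairs of values. Its sequence 2 (chromosome 4, 129234057 to 129235616), a thymus cDNA, was at 1468 in the knockout and 1398 in the control, a difference of 0.07. That was 19.4 times the random-sequence level in the knockout and 19.6 times in the control. Sequence 1 (129225601 to 129233738) was at 67.7 in the knockout, below the random-sequence level, and at 89.7 in the control, so the knockout was at least 1.19-fold lower. The spans of the sequences do not overlap and are 318 bases apart. Sequence 2 was above background on both arrays and sequence 1 on the control array only, at 1.26 times the random-sequence level.

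RefSeq gives Lck 2 starts on the minus strand, 15269 bases apart. Their upstream windows are shown because the Lck sequences come from different stretches of the gene, and the arrays cannot say from which start RNA was made. The windows are 250 bases each, on GRCm38.p6, with capitals as above.
Lck, start nearer the gene's 3′ end (chr4:129558373-129558622, minus strand): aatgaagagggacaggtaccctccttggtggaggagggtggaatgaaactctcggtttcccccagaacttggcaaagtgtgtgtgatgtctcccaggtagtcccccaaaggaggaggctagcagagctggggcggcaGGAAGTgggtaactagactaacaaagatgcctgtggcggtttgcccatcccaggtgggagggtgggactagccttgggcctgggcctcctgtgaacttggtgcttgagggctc
Lck, start farther from the 3′ end (chr4:129573642-129573891, minus strand): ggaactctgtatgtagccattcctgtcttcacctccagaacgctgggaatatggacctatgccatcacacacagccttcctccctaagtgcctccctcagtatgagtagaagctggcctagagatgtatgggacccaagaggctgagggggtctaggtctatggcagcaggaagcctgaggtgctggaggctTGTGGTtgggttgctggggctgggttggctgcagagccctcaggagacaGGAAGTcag

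The first of these windows held an Ets match from 113 bases before the start, and the other held a Runx match from 58 bases and an Ets match from 9 bases before it, all on the strand of the gene. Neither window held CTTTGA or AGATAA.

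Among the T lineage factors, Tcf7 was higher in the knockout with all 3 of its sequences, by less than 2-fold. Its sequence 3 (chromosome 11, 52071185 to 52074123) was at 1220 in the knockout and 983 in the control, a difference of 0.31. Sequence 2 (52066105 to 52096516) was at 325 in the knockout and 233 in the control, a difference of 0.48. Sequence 1 (52065872 to 52070613) was at 98.2 in the knockout and 73.2 in the control, a difference of 0.42, the control value being 1.03 times the random-sequence level. Tcf7 was the only one of the 6 genes with several sequences whose sequences all differed in 1 direction, with values below background counted too. Each of these differences was smaller than the spread between sequences of 1 gene, a within-gene SD of 0.64 over 10215 genes with several sequences and of 0.69 over the 6 T cell genes. This SD covers probe noise and differences between transcripts, not mice. Over the 10215 genes, 60.9% had sequences that differed in both directions.

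Gata3 was near background. Its sequence 1 (chromosome 2, 9778704 to 9800227) was at 94.9 in the knockout and at 66.6 in the control, where it was below the random-sequence level, so the knockout was at least 1.33-fold higher. Sequence 2 (9778706 to 9800227), whose span differs by 2 bases, was at 33.9 in the knockout and 66.0 in the control, below that level on both. Gata3 thus had a direction from sequence 1 alone, and from its knockout value against background. Bcl11b, with 1 sequence (chromosome 12, 109153422 to 109241424), was at 137 in the knockout and 207 in the control, a difference of -0.59. That was 1.81 times the random-sequence level in the knockout and 2.91 times in the control. No other sequence of the gene could be set beside it.

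The receptor's own chains were measured by sequences that mostly carry no gene symbol, and they were split evenly. Sequences described in the files as T cell receptor and placed on chromosomes 6, 13 and 14 were collected, a choice made after the files were seen. They numbered 180, of which 145 had no symbol. Of these 180, 90 were higher and 90 lower in the knockout, with a median difference of 0.0008, and 16 were 2-fold or more higher and 9 lower, together 13.9%, beside 12.7% of all sequences. At the alpha and delta locus (chromosome 14, 53048304 to 54843439) 12 of 117 were 2-fold or more higher and 5 lower. At the beta locus (chromosome 6, 40841227 to 41508364) these counts were 4 and 4 of 52, and at the gamma locus (chromosome 13, 19269892 to 19444634) they were 0 and 0 of 11. All these counts use values as measured, and only 112 of the 180 sequences were above the random-sequence level on both arrays. Calls in both directions include sequences below that level on 1 array or both, so the higher and lower counts are not read as a tilt. The segments of these loci are near copies of each other and many of the sequences overlap, so a probe can bind RNA of several, and they are not separate measurements.

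**Figure D4:**
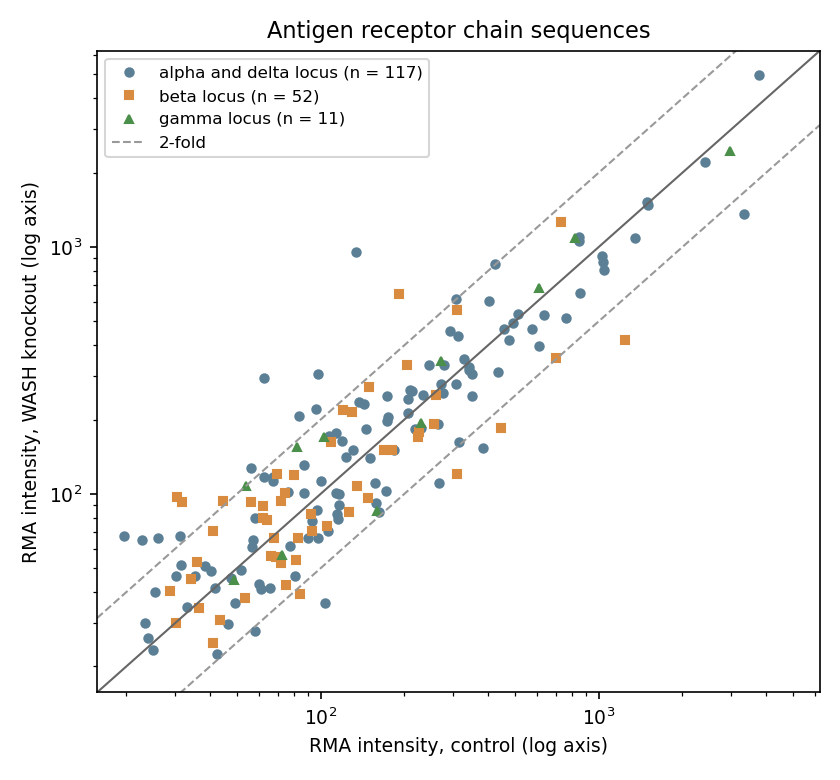
RMA intensity of 180 T cell receptor chain sequences on the WASH knockout array (vertical, log axis) against the control array (horizontal, log axis), by locus. The solid line marks equal values and the dashed lines 2-fold. Points lie on both sides of the solid line, with 90 above and 90 below, and 16 lie above the upper and 9 below the lower dashed line. Values below the random-sequence level are drawn and counted too.

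Genes that work with the receptor were read from 4 lists, with each gene represented by its brightest sequence. The list of T cell receptor signalling genes held more genes lower in the knockout than the others. Of its 34 genes, 9 (26.5%) were 2-fold or more lower as measured and 2 (5.88%) higher, Nck2 and Bcl10, beside 6.42% and 5.94% of all genes, while the list's median was -0.05, beside 0.02 for all genes. Over all 94 sequences of these genes, 12 were 2-fold or more lower and 7 higher, beside 6.77% and 5.98% of all sequences. When a gene's sequences were averaged, 1 gene was past 2-fold lower and 1 higher, and with the dimmest sequence 3 were lower and 4 higher, so the count of 9 rests on the brightest sequences. Among the 30 genes of the list above background on both arrays, 8 were lower by that size and 0 higher. The share of all genes past 2-fold under this filter was not counted, so these counts are not read as a tilt. Bcl10, an adaptor that works with Malt1, was below background in the control, with a bound of at least 1.53-fold higher. Bcl10, Pdcd1 and S1pr1 are named because of their bounds, after their values were seen.

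The 5 lower genes of this list with the largest differences were phosphatases, adaptors and a protease. Ubash3b, a phosphatase that dampens receptor signalling, was at 50.5 in the knockout, not above the random-sequence level, and 262 in the control, at least 3.47-fold lower in the knockout, with 1 sequence. Malt1, the protease of the complex that carries the signal to NF-kappaB, was at 140 in the knockout and 638 in the control (-2.19), but its 3 sequences ranged from -2.19 to 0.03. Ptpn22, a phosphatase that acts on Lck, was at 276 in the knockout and 848 in the control (-1.62), and its other sequence differed by -0.32. Ptpn22 thus had both of its sequences lower in the knockout. Sla, an adaptor that lowers receptor levels, was at 2400.0 in the knockout and 6738 in the control (-1.49), with its other sequence at 0.15. Fyb, the adaptor that links the receptor to integrins, was at 961 in the knockout and 2639 in the control (-1.46), with its other sequence at 0.16. Sla, Fyb, Malt1 and Ptpn22 are not particular to T cells and are also used in myeloid cells. The neutrophil markers, with summed intensities of 53128 in the knockout and 139230 in the control, moved in the same direction, and their part in the lower values was not tested.

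One gene of this list above the array median was at least 2-fold higher in the knockout. Nck2, an adaptor that binds the CD3 epsilon tail, was at 160 in the knockout and, below the random-sequence level, at 67.9 in the control, so it was at least 2.24-fold higher, but its 3 sequences ranged from -0.14 to 1.24. Genes closest to the receptor, looked up after their values were seen, had differences under 2-fold with their brightest sequences. Zap70, the kinase that binds phosphorylated CD3 and zeta tails, was at 524 in the knockout and 490 in the control (0.10). Its 3 sequences were all higher, by 0.10 to 1.68. Lat, the scaffold that Zap70 phosphorylates, was at 464 in the knockout and 580 in the control (-0.32).

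Surface genes of T cells had 22 of 23 list members on the array. Of these 3 (13.6%) were 2-fold or more lower as measured and 1 (4.55%) higher, beside 6.42% and 5.94% of all genes. The list's median was -0.33. The higher gene, Pdcd1, was below background in the control and had a bound of at least 1.56-fold. One of the lower genes, S1pr1, was below it in the knockout, with a bound of at least 1.68-fold. Of the 12 genes above background on both arrays, 2 were lower by that size and 0 higher. With an offset of 50 these counts were 1 and 0. The share of all genes was not counted in either setting. Over all 36 sequences of the genes the median was 0.03, so the lower median belongs to the brightest sequences. Cd96, a receptor of T and NK cells, was at 124 in the knockout and 301 in the control (-1.27), with 2 of its 3 sequences higher in the knockout. Cd28, the costimulatory receptor, was at 264 in the knockout and 540 in the control (-1.03), with its other sequence at 0.03. Neither gene was lower with all of its sequences.

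Transcription factors of the T lineage had no common direction. Of 30 measured members, 15 were higher and 15 lower, with a median of -0.005. In each direction 1 (3.33%) differed by 2-fold or more, beside 5.94% of all genes higher and 6.42% lower. With an offset of 50 added before the log, 0 were past 2-fold in either direction, so the calls of Lef1 and Spi1 were lost. Lef1, the close relative of Tcf7, was at 85.3 in the knockout and 172 in the control (-1.01), while 3 of its 5 sequences were higher in the knockout and the range was -1.69 to 1.29. Spi1, the PU.1 factor that is silenced as progenitors commit to the T lineage, was at 196 in the knockout and 77.0 in the control (1.35), with 1 sequence. Its control value was 1.08 times the random-sequence level. Of the genes for assembling the receptor, 4 of 13 were found by name, with a median of 0.33, and 1 of them, Rag2, stayed under the random-sequence level in the knockout and in the control. For the 3 genes above that level on both arrays the median was 0.17. Ptcra, the pre-T alpha chain that stands in for the alpha chain in the thymus, was at 478 in the knockout and 426 in the control (0.17). The Tcra sequence of highest signal was at 920.1 in the knockout and 1024 in the control (-0.15). Neither gene differed by more than the within-gene SD of 0.64.

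**Figure D5:**
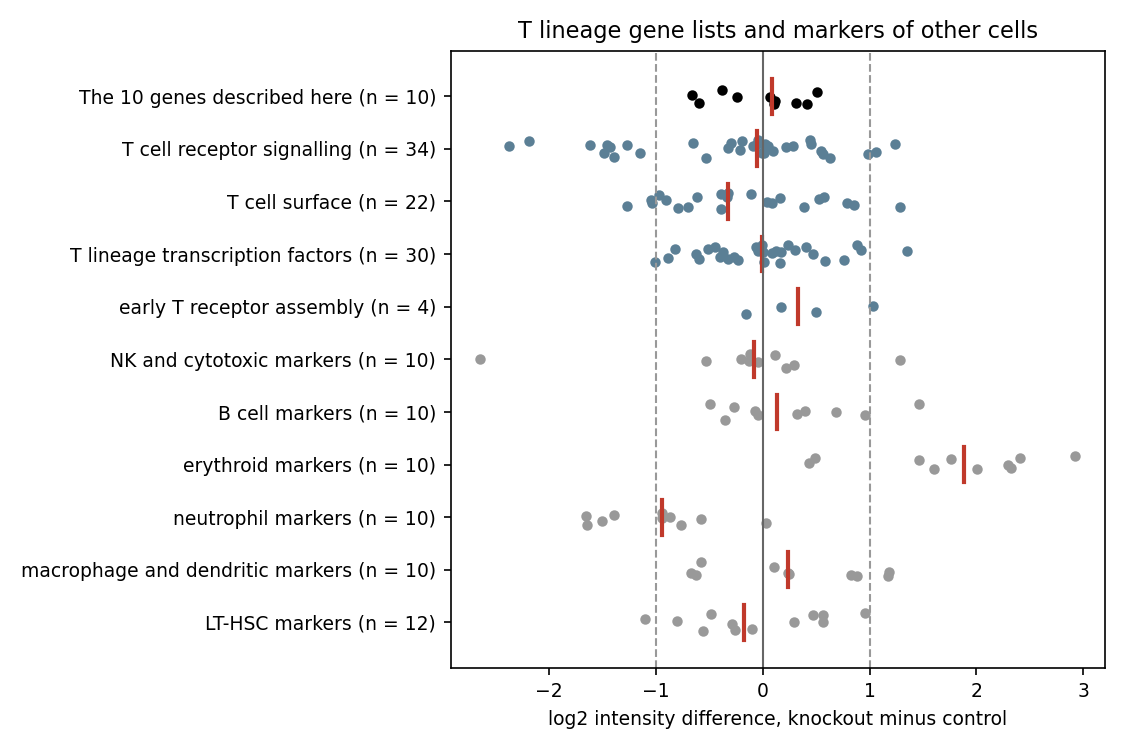
Log2 intensity difference, knockout minus control, of the brightest sequence of each gene in the 10 T cell genes, 4 T lineage lists and 6 lists of markers of cells the sort could hold. Each point is a gene, the red bar the list's median and the dashed lines 2-fold. The 10 T cell genes lie between -0.67 and 0.51, while erythroid markers have a median of 1.88 and neutrophil markers one of -0.94.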

How the data were processed

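LT-HSC from WASH knockout and control mice were measured on 1 NimbleGen array each. The authors deposited 1 intensity per sequence, made with RMA per the submitters' processing notes (version not given in the sources used here) and, per the file headers and columns, from 3 probes for 44155 of 44170 sequences, with positions on MM9. The number of arrays limits the precision. Of 34219 entries in the authors' series table, 34218 matched these intensity values, to within 0.0412. All 9952 sequences it leaves out were below 50 on at least 1 array.

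Log2 values were taken without further scaling (Python 3.11.15, pandas 2.3.3, statsmodels 0.14.6). Gene symbols were updated through the RefSeq gene table by gene identifier, which matched 39057 of 41886 sequences with a symbol. A gene was represented by its sequence with the highest mean log2 value. Differences were counted at 2-fold with no test. Steps were tested on simulated data.

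The 10 genes and all lists were chosen with earlier results of these data known. Named from each list were genes at 2-fold or more and above the median (percentile 50) of an array, up to 5 in each direction, or else the brightest 2. With 2 arrays, no gene could be named for a like pattern. RefSeq promoter windows were found for 9 of the 10 genes and cut to the 250 bases before the start. The alternatives tried were the series table, centring, quantile normalization, loess (span 0.3), an offset of 50, other sizes (1.5-fold and 3-fold), 2 filters on dim sequences and other ways to represent a gene.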

Additional observations from a re-analysis of the deposited data

How the results depend on the processing

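No paired analysis was possible because knockout and control were measured on 1 array apiece, with no test. The median difference of the T cell sequences stayed between 0.08 and 0.21 over the alternatives. The count of these sequences past 2-fold higher as measured (1) became 0 with an offset of 50 and at 3-fold. It also became 0 with the series table, the filter at the array median and the filter at the random-sequence level on both arrays (chosen after seeing the data). The series table and both filters leave the counted sequence, of Cd8a, out. At 1.5-fold, 3 sequences were higher and 4 lower, and 2 genes were lower. With the dimmest sequence of each gene 1 gene, Cd8a, was past 2-fold higher, its control value being below background. Over the 4 lists, 5 genes were past 2-fold higher as measured and 13 lower, counting Rag2, below background on both arrays, and Bcl10, Pdcd1 and S1pr1, whose bounds were under 2-fold. The higher count became 3 with the series table, 0 with the offset, 2 and 1 with the filters at the array median and at the random-sequence level, 12 at 1.5-fold, 0 at 3-fold and 9 with the dimmest sequence. The lower count became 10 with the offset, 11 with the filter at the random-sequence level, 23 at 1.5-fold, 3 at 3-fold, 2 when a gene's sequences were averaged and 8 with the dimmest sequence. Stricter sizes and filters count fewer by construction. When a gene's sequences were averaged, the sign changed for Cd8a (-0.24 to 0.59), Gata3 (0.51 to -0.23) and Lck (0.07 to -0.17). The difference of Cd247 went from -0.67 to -0.08. These averages include values below background. The difference of Cd4 changed sign with its dimmest sequence, to -0.30. For Cd247, Cd8a, Lck and Gata3 the dimmest sequence was below background on at least 1 array and gives a bound or no fold. Closeness to the random-sequence level limits what can be read for Cd3d, Cd3g, Cd8a and Gata3.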

Other observations

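Markers of the other lymphoid cells were also mixed. Of 10 NK and cytotoxic markers 1 (10%) was 2-fold or more higher and 1 (10%) lower in the knockout, beside 5.94% and 6.42% of all genes. Their median was -0.08, with summed intensities of 5875 in the knockout and 6895 in the control. Klrb1c, an NK receptor gene, was at 752 in the knockout and 309 in the control (1.28), while its 3 sequences ranged from -1.24 to 1.28. Gzmb, the granzyme B gene, was at 121 in the knockout and 756 in the control (-2.64), with 1 sequence. The brightest sequences of Gzma, Prf1, Klrd1 and Klra8 stayed under the random-sequence level in the knockout and in the control.

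Of 10 B cell markers 5 were higher and 5 lower, with a median of 0.14. Ms4a1, which encodes CD20, was at 1266 in the knockout and 652 in the control (0.96), with its other sequence at -0.15. Pax5, the factor that fixes B cell identity, was at 374 in the knockout and 232 in the control (0.69). The genes in these paragraphs were chosen after their values were seen.

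Of 10 macrophage and dendritic markers 2 (20%) were 2-fold or more higher in the knockout and 0 lower, beside 5.94% and 6.42% of all genes. Their median was 0.24, beside 0.02 for all genes. Over all 20 sequences of these genes the median was 0.04, so the higher median belongs to the brightest sequences. In lists this short a single gene shifts such a share. Of the 12 LT-HSC markers 1 (8.33%) was 2-fold or more lower and 0 higher, with a median of -0.18.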
